A study of Sus scrofa with 36 samples.

Results

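RIGI, IFIH1, DDX60, TRIM25, EIF2AK2 and ADAR, which encode sensors of viral RNA and enzymes that act on double-stranded RNA, were described in subcutaneous adipose tissue of pigs. The members were chosen by gene symbol, and all 6 were found among the 12253 genes of the deposited table, as ENSSSCG00000030408 (RIGI, also written DDX58), ENSSSCG00000015897 (IFIH1), ENSSSCG00000009720 (DDX60), ENSSSCG00000017614 (TRIM25), ENSSSCG00000008496 (EIF2AK2) and ENSSSCG00000006543 (ADAR). The 36 pigs came from the second generation of a cross between Duroc sows and Göttingen Minipig boars, were untreated, and were sorted by an Obesity Index, a predicted genetic value, into 12 lean (low index), 12 intermediate and 12 obese (high index) animals. The lean group held 7 males and 5 females, and the intermediate and obese groups held 6 of each sex. The pigs were slaughtered at about the same weight, so the lean pigs were older, and age and group cannot be told apart. By the study's methods a group could hold up to 3 full sibs, and families and sequencing lanes could not be assigned to pigs here.

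Double-stranded RNA in the cytosol is a mark of virus infection. The helicases RIG-I (from RIGI) and MDA5 (from IFIH1) bind it and signal through the mitochondrial adaptor MAVS to switch on interferon genes, while DDX60 is a helicase reported to assist RIG-I, and TRIM25 is a ubiquitin ligase that activates it. PKR (from EIF2AK2) binds the same RNA, phosphorylates the translation factor eIF2 and halts protein synthesis, and ADAR1 (from ADAR) edits adenosine to inosine in double-stranded RNA, which keeps the cell's own transcripts from setting off the sensors. The genes are themselves induced by interferon. In adipose tissue they are expressed by adipocytes and by the immune and vascular cells around them.

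Each pig had between 8735839 and 11755925 recovered reads over the 12253 genes, and the correlation of log2 values over all genes between pairs of pigs ran from 0.898 to 0.978. Levels are given as normalized counts, the recovered reads divided by the pig's size factor. Differences are on the deposited log2 scale, with the standard error (SE) from limma, and adjusted p-values are Benjamini-Hochberg (BH) values over all genes. Of 9 adipocyte markers, 5 were found by symbol (PLIN1, PLIN4, CIDEC, LIPE and PPARG), and no pig had fewer than 1132 reads of any of them. These are bulk tissue values, in which fewer cells of a type and less RNA per cell cannot be told apart.

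The pattern that stood out was a pair of female obese pigs, numbers 1 and 3, rather than a group. They were the 2 highest of the 36 pigs for RIGI, IFIH1, DDX60, TRIM25 and ADAR, that is for 5 of 6 members, and over all genes the same held for 210 of 12253, or 1.71%. They had 11001415 and 11357299 reads, within the range of the others, and ranked 6 and 8 from the lowest in their mean correlation with the other pigs. They were noticed from the values, so they are described one by one, and the comparisons are also given for the 34 other pigs, an alternative chosen after seeing the data.

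RIGI, the sensor of short and 5′-triphosphate RNA, had normalized counts in the lean pigs of 240.3 at the lowest, 399.6 at the median and 761 at the highest. The intermediate pigs had 185 at the lowest, 305 at the median and 1061 at the highest. The obese pigs had 179.7 at the lowest, 359.7 at the median and 3667 at the highest. The 3 groups overlapped over most of their range, and the obese group differed from the others in its top: obese pig 1 had 3667 and obese pig 3 had 3251, which were 10.0 and 8.89 times the median of all pigs. The next pigs were intermediate pig 1, a female, at 1061 and lean pig 8, also a female, at 761. The lowest pigs were obese pig 5 and intermediate pig 9, both males, at 179.7 and 185.

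IFIH1, the sensor of long double-stranded RNA, ran from 137 over a median of 240.3 to 342 in the lean pigs. It ran from 117 over 199 to 379 in the intermediate pigs, and from 105 over 208 to 946 in the obese pigs. The same pigs stood at both ends as for RIGI: obese pigs 3 and 1 were highest at 946 and 917, followed by intermediate pig 1 at 379 and lean pig 8 at 342, and obese pig 5 was lowest at 105. The groups overlapped.

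DDX60, the helicase named as a partner of RIG-I, varied most of the 6. It ran from 35.5 over 82.3 to 344 in the lean pigs, from 13.8 over 65.1 to 217 in the intermediate pigs and from 15.0 over 67.9 to 1188 in the obese pigs. Obese pig 1 had 1188 and obese pig 3 had 855, against 344 in lean pig 8 and 217 in intermediate pig 1. The highest count was 86.2 times the lowest, which was that of intermediate pig 2, a male, at 13.8. The groups overlapped.

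TRIM25, the ubiquitin ligase of RIG-I, had a narrower range. It ran from 76.4 over 107 to 178 in the lean pigs, from 67.1 over 103 to 147 in the intermediate pigs and from 70.7 over 118 to 273 in the obese pigs. Obese pigs 1 and 3 were again the highest, at 273 and 243, and the 3 pigs after them were lean females, numbers 6, 8 and 12, at 178, 168 and 161. The groups overlapped.

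EIF2AK2, the gene of PKR, was covered by only 9 to 60 reads per pig, so counting error took a larger part of its spread. It ran from 12.2 over 25.0 to 44.8 in the lean pigs, from 12.6 over 20.6 to 41.7 in the intermediate pigs and from 11.3 over 23.4 to 56.7 in the obese pigs. Obese pig 1 was the highest at 56.7, whereas obese pig 3, at 34.8, ranked 10. Lean pigs 8 and 7 came next at 44.8 and 44.4, and the groups overlapped.

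ADAR, the editing enzyme, ran from 793 over 1093 to 1363 in the lean pigs. It ran from 754 over 860.0 to 1442 in the intermediate pigs and from 630.2 over 912 to 2596 in the obese pigs. Obese pigs 3 and 1 had 2596 and 2319, and the next were intermediate pig 1 at 1442 and lean pig 7, a male, at 1363. The 6 intermediate males were close together, from 788 to 878, and the groups overlapped.

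**Figure D1:**
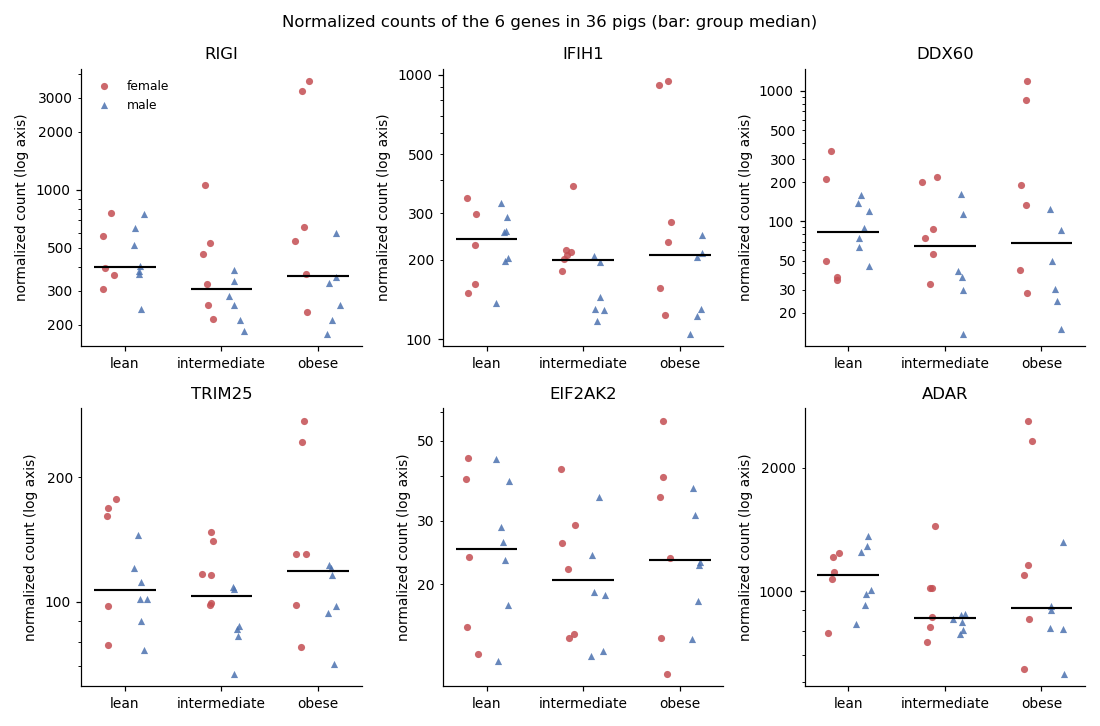
Normalized counts (vertical log axis, different for each gene) of the 6 genes in lean, intermediate and obese pigs, 12 in each group. Each circle is a female and each triangle a male, and the black bar is the median of the group. Obese pigs 1 and 3 stand at the top of 5 panels, at 3667 and 3251 for RIGI, and most of the other obese pigs lie among the points of the lean and intermediate groups.

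The spread between pigs differed among the members. The SD of the log2 normalized count over the 36 pigs was 1.44 for DDX60, larger than that of 99.6% of all genes, and 0.97 for RIGI, larger than that of 96.9%. It was 0.70 for IFIH1 (90.1%), 0.63 for EIF2AK2 (86.3%), 0.45 for TRIM25 (70.1%) and 0.43 for ADAR (67.3%), while the median gene had 0.33. Counting error alone, from the reads of each pig, would give an SD of 0.05 for ADAR, 0.08 for RIGI, 0.10 for IFIH1, 0.14 for TRIM25, 0.20 for DDX60 and 0.31 for EIF2AK2.

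The obese and lean pigs are the outer groups of the design, of high and low genetic risk of obesity, and none of the 6 members differed between them beyond the spread between pigs. In limma with group and sex as terms, 0 of 6 members passed the adjusted threshold of 0.05 and 0 of 6 had an unadjusted p under 0.05. Over all genes 0.0408% (5 of 12253, all lower in obese pigs, while 2 of 9 were higher with each pig's median subtracted) passed the adjusted threshold and 14.7% had an unadjusted p under 0.05. The obese minus lean difference was 0.08 for RIGI (SE 0.36, 95% interval -0.64 to 0.80), -0.05 for IFIH1 (SE 0.27, -0.60 to 0.49) and -0.13 for DDX60 (SE 0.55, -1.23 to 0.98). It was 0.03 for TRIM25 (SE 0.17, -0.32 to 0.38), -0.04 for EIF2AK2 (SE 0.26, -0.57 to 0.48) and -0.06 for ADAR (SE 0.17, -0.41 to 0.29). The adjusted p-values ran from 0.916 to 0.964. The intervals were wide for DDX60 and RIGI, so a difference of 0.80 on the log2 scale in either direction lies within the interval of DDX60.

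Obese pigs 1 and 3 set the sign or the size of these differences. Without them the obese minus lean difference was -0.42 for RIGI, -0.42 for IFIH1, -0.75 for DDX60, -0.16 for TRIM25, -0.21 for EIF2AK2 and -0.29 for ADAR, so all 6 were lower in the remaining obese pigs than in the lean pigs, and RIGI and TRIM25 changed sign. IFIH1 (p = 0.0334, adjusted p = 0.311 in limma) and ADAR (p = 0.0273, adjusted p = 0.288) then had an unadjusted p under 0.05, as did 13.7% of all genes, and 0 of 6 passed the adjusted threshold.

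The estimates for the intermediate pigs lay below those for the lean pigs. The intermediate minus lean difference was -0.51 for RIGI (SE 0.36), -0.35 for IFIH1 (SE 0.27), -0.54 for DDX60 (SE 0.55), -0.21 for TRIM25 (SE 0.17), -0.26 for EIF2AK2 (SE 0.26) and -0.29 for ADAR (SE 0.17). All 6 were negative, but 0 of 6 passed, either adjusted (limma, adjusted p 0.490 to 0.711) or unadjusted, where the background was 0% and 12.5% of all genes. The fit without obese pigs 1 and 3 uses the same lean and intermediate animals but estimates the spread without these 2 pigs. The SE of this difference was then 0.24 for RIGI and 0.12 for ADAR, against 0.36 and 0.17. In limma RIGI (-0.48, p = 0.0499989, barely under the threshold) and ADAR (-0.28, p = 0.0277) had an unadjusted p under 0.05, again beside 12.5% of all genes. Neither passed after adjustment in limma (adjusted p = 0.401 and 0.354).

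The obese minus intermediate difference was 0.59 for RIGI, 0.30 for IFIH1, 0.41 for DDX60, 0.24 for TRIM25, 0.22 for EIF2AK2 and 0.23 for ADAR. Here too 0 of 6 passed the adjusted threshold (limma, adjusted p 0.989 to 0.990) and 0 of 6 the unadjusted one, beside 0% and 4.28% of all genes. Without obese pigs 1 and 3 these differences were between -0.25 (DDX60) and 0.06 (RIGI). The intermediate pigs served in both of these comparisons and the lean and obese pigs in 2 each, so the 3 sets of differences are not independent.

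**Figure D2:**
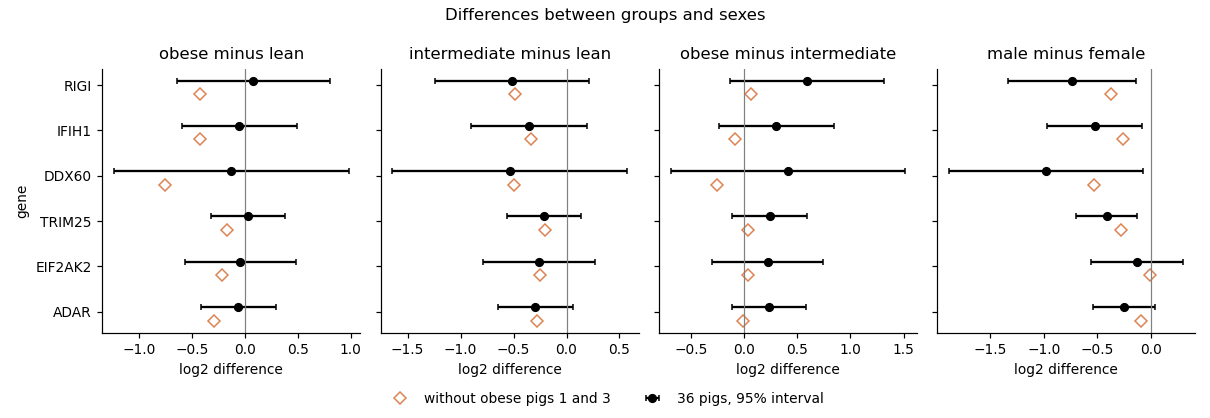
Log2 difference (horizontal axis) of the 6 genes in 4 comparisons. Black points and bars give the estimate and its 95% interval with 36 pigs, and open diamonds the estimate without obese pigs 1 and 3. In obese minus lean all black intervals include 0 and all diamonds lie below 0, and in male minus female all estimates lie below 0.

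The macrophage markers had higher estimates in obese than in lean pigs, and their part in these comparisons was not tested. Of 11 markers 7 were found (CD68, CD14, CSF1R, C1QA, FCER1G, ITGAM and MRC1), and their obese minus lean differences had a median of 0.74 with 6 of 7 at an unadjusted p under 0.05, beside 14.7% of all genes, and 0 of 7 past the adjusted threshold in limma. The median over 34 pigs was 0.79, with 7 of 7 at an unadjusted p under 0.05 beside 13.7% of all genes, and 0 of 7 passed. Of the other markers 0 passed. The 4 endothelial markers found all had lower estimates in obese pigs, with a median of -0.31 in 36 and in 34 pigs and 2 and 3 of 4 at an unadjusted p under 0.05, and the 4 T or NK cell markers all had higher ones, with medians of 0.71 and 0.39 and 1 of 4 in both. The adipocyte markers had 2 of 5 (medians 0.10 and 0.04) and the fibroblast or progenitor markers 0 of 5 (0.18 and 0.24). The summed count of the macrophage markers ran from 2066 to 10065 in lean, from 2745 to 9703 in intermediate and from 4294 to 10655 in obese pigs. The median difference of the 6 members in the same comparison was -0.05, and of all genes -0.01.

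Between the sexes all 6 estimates were below 0, that is lower in males, and none passed after adjustment over all genes. TRIM25 had a male minus female difference of -0.42 (SE 0.14, p = 0.00580, adjusted p = 0.106 in limma). RIGI had a male minus female difference of -0.74 (SE 0.29, p = 0.0164, adjusted p = 0.167), IFIH1 of -0.53 (SE 0.22, p = 0.0216, adjusted p = 0.192) and DDX60 of -0.98 (SE 0.45, p = 0.0351, adjusted p = 0.237). ADAR (-0.26, SE 0.14, p = 0.0793) and EIF2AK2 (-0.13, SE 0.21, p = 0.548) did not reach even the unadjusted level. Thus 4 of 6 had an unadjusted p under 0.05 beside 18.3% of all genes, and 0 of 6 an adjusted p under 0.05 beside 2.19%.

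In normalized counts RIGI ran from 214 over a median of 466 to 3667 in the 17 females and from 179.7 over 339 to 751 in the 19 males. TRIM25 ran from 77.9 over 130.1 to 273 in females and from 67.1 over 101 to 145 in males. The sexes overlapped for both genes, and the upper end of the females held obese pigs 1 and 3. Without these, the male minus female difference was -0.38 for RIGI, -0.26 for IFIH1, -0.53 for DDX60, -0.28 for TRIM25, -0.09 for ADAR and -0.01 for EIF2AK2, so it kept its sign in all 6. Only TRIM25 then had an unadjusted p under 0.05 (p = 0.0272, adjusted p = 0.299 in limma), that is 1 of 6 beside 13.8% of all genes.

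TRIM25, not called with all pigs (adjusted p = 0.106 in limma), was the only member to pass for male minus female in a fit without 1 pig. Without lean pig 1 TRIM25 male minus female was -0.47 with an adjusted p of 0.0486 in limma, and without obese pig 7 it was -0.48 with 0.0430, while the other 34 fits without 1 pig left it above the threshold. Lean pig 1 and obese pig 7 are females with low TRIM25 counts. Over all 12253 genes 546 passed without lean pig 1 and 308 without obese pig 7, against 268 with all pigs.

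Markers of several cell types also differed between the sexes, and their part in the sex difference of the members was not tested. Of the 5 fibroblast or progenitor markers found of 8, all had higher estimates in males (median 0.64), 5 had an unadjusted p under 0.05 beside 18.3% of all genes, and COL1A2 and DCN passed the adjusted threshold in limma (adjusted p = 0.00676 and 0.0222). Of the 5 adipocyte markers all had lower estimates in males (median -0.33), 4 had an unadjusted p under 0.05 and LIPE passed (adjusted p = 0.00534). The summed counts ran from 146491 to 584637 in females and from 250932 to 790363 in males for the fibroblast or progenitor markers, and from 35356 to 94111 and from 25428 to 65408 for the adipocyte markers. Over 34 pigs the medians were 0.60 and -0.29, and 1 gene of each list passed. The 4 T or NK cell markers found of 11 (CD2, CD8A, NKG7 and LCK) had a median male minus female difference of -0.97, with 4 of 4 at an unadjusted p under 0.05 and 0 of 4 past the adjusted threshold. Their summed count ran from 177 to 1724 in females and from 103 to 471 in males, and without obese pigs 1 and 3 their median difference was -0.74, with 4 of 4 at an unadjusted p under 0.05 and 0 of 4 past the adjusted threshold. The macrophage and endothelial markers had 2 of 7 and 1 of 4 at an unadjusted p under 0.05, and 0 passed in limma.

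Within the sexes the obese minus lean difference of the sensors had opposite signs in 36 pigs, and the same sign without obese pigs 1 and 3, both females. With all pigs, in females it was 0.83 for RIGI, 0.46 for IFIH1 and 0.98 for DDX60, and in males -0.56, -0.48 and -1.06. The difference between the sexes, tested as an interaction, was -1.39 for RIGI (SE 0.70), -0.94 for IFIH1 (SE 0.53), -2.04 for DDX60 (SE 1.07), -0.46 for ADAR (SE 0.35), -0.15 for EIF2AK2 (SE 0.53) and -0.10 for TRIM25 (SE 0.36). None passed: 0 of 6 were past the adjusted threshold (limma, adjusted p 0.395 to 0.931) beside 0.00816% of all genes, and 0 of 6 had an unadjusted p under 0.05 beside 12.9%. In the 34 pigs the female difference was -0.23 for RIGI (SE 0.39), -0.35 for IFIH1 (SE 0.30) and -0.31 for DDX60 (SE 0.73), below 0 as in males, and the interaction was -0.33 for RIGI, -0.13 for IFIH1 and -0.75 for DDX60.

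The 6 members varied together from pig to pig. To take out group and sex, the mean of each group and sex was subtracted, and pigs were permuted within these cells (two-sided permutation test with 100000 resamples, BH over the 15 pairs). In the 34 pigs without obese pigs 1 and 3, the median Pearson's r of the 15 pairs was 0.60 (0.43 to 0.89), and Spearman's rho lay between 0.42 and 0.90. All 15 pairs passed the threshold, with adjusted permutation p-values of up to 0.0243 for r and 0.0261 for rho. As background, 5.25% of all gene pairs had an r at least as high as the lowest of the 15, as did 1.4% (DDX60) to 7.48% (TRIM25) of the genes that are no members with each member. Leaving out in addition the pigs farthest from the median of the first gene gave r from 0.37 to 0.87. With all 36 pigs the median r was 0.73 (0.56 to 0.95), rho lay between 0.52 and 0.91 and r without the 2 farthest pigs between 0.46 and 0.92, and again 15 of 15 pairs passed, with adjusted permutation p-values of up to 0.00405 for r. There 1.35% of all gene pairs reached the lowest of the 15.

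The sensor pair RIGI and IFIH1 had the highest r in both sets, 0.89 in 34 pigs and 0.95 in 36. It was followed in 34 pigs by IFIH1 with DDX60 (0.81) and RIGI with ADAR (0.78), and in 36 pigs by RIGI with ADAR (0.90) and IFIH1 with ADAR (0.89). The lowest r in both sets was that of DDX60 with EIF2AK2 (0.43 in 34 pigs and 0.56 in 36). The next lowest was TRIM25 with ADAR in 34 pigs (0.44) and EIF2AK2 with ADAR in 36 (0.61). Described within groups after subtraction of sex means, the median r of the pairs was 0.63 in the 12 lean pigs, 0.38 in the 12 intermediate pigs and 0.92 in the 12 obese pigs, and 0.86 in the 10 obese pigs left without numbers 1 and 3. With sex left in, these medians were 0.63, 0.55, 0.93 and 0.84. The differences between these medians were not tested. DDX60 and EIF2AK2 in the intermediate pigs had an r of -0.12, and -0.01 with sex left in.

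**Figure D3:**
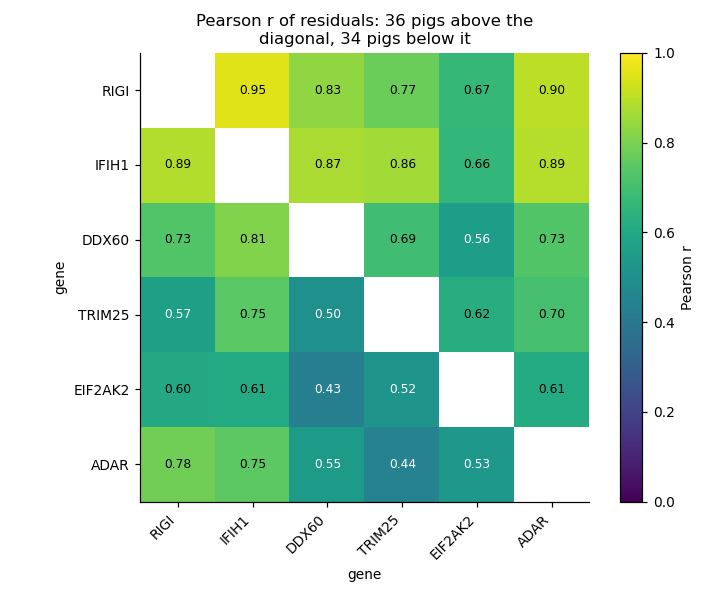
Pearson's r of each pair of the 6 genes, after subtraction of group and sex means, as colour and number. Cells above the diagonal use 36 pigs and cells below it the 34 pigs without obese pigs 1 and 3. RIGI and IFIH1 are the closest pair on both sides (0.95 and 0.89), and DDX60 and EIF2AK2 have the lowest r on both (0.56 and 0.43).

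The genes with a symbol whose pattern over the 36 pigs was most like that of a member were mostly known interferon-induced genes. For RIGI they were RSAD2 (viperin, r = 0.95), DHX58 (LGP2, the remaining RIG-I-like receptor, 0.95) and IFIH1 (0.95), and for IFIH1 they were RIGI, RSAD2 (0.94) and PARP14 (0.94). DDX60 was nearest to UBE2L6 (the E2 enzyme for ISG15, 0.89), PARP14 (0.89) and IFIH1 (0.88). ADAR was nearest to TRIM21 (0.93), IFIT1 (0.93) and PML (0.93), and TRIM25 to MX2 (0.84), IFIH1 (0.84) and PARP12 (0.81). EIF2AK2 had lower values, with HERC6 at 0.76, TRIM34 at 0.72 and CMPK2 at 0.70. The median r with all other genes was 0.03 to 0.10. These are descriptions over pigs that share group and sex terms and include obese pigs 1 and 3.

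Without those pigs the nearest genes of RIGI were DHX58 (0.92), MX1 (0.90) and IFI44 (0.90), and DDX60 had the same 3 as before. TRIM25 changed most: its nearest genes became TLR8 (0.79), DRAM2 (0.78) and GIMAP4 (0.78), and RIGI fell from rank 44 to rank 404 among the genes nearest to it. EIF2AK2, DDX60 and ADAR then stood at ranks 413, 767 and 859 of the genes nearest to TRIM25, and IFIH1 at 26.

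Other genes of the RIG-I-like receptor pathway, of which 20 of 34 listed were found, had no call between obese and lean pigs. In limma 0 of 20 passed the adjusted threshold and 1 had an unadjusted p under 0.05, beside 14.7% of all genes, with a median difference of 0.02. That gene was USP15, a deubiquitinase that acts on TRIM25 (272 ± 24.4 in lean and 327 ± 75.1 in obese pigs, mean ± SD of counts, n = 12 each, difference 0.21, adjusted p = 0.316), and without obese pigs 1 and 3 its difference was 0.11. Without these pigs 0 of 20 had an unadjusted p under 0.05, beside 13.7% of all genes, and 0 of 20 passed in limma, with a median of -0.02. USP4, another deubiquitinase (0.12, adjusted p = 0.473), and RNF135, the ligase Riplet that ubiquitinates RIG-I (-0.16, adjusted p = 0.512), followed. The adaptor MAVS had a difference of 0.01 (SE 0.07), and the transcription factor IRF3 of -0.10 (SE 0.10). Only DHX58 and USP15 of the 20 had obese pigs 1 and 3 as the 2 highest, beside 1.71% of all genes. DHX58 had 1358 and 1780 in these pigs, against a median of 171.

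Between the sexes 2 of these 20 genes passed the adjusted threshold, beside 2.19% of all genes, and both were lower in males: DDX3X, an RNA helicase (-0.40, adjusted p = 0.0113 in limma), and IKBKG, the regulatory subunit of the IκB kinase (-0.36, adjusted p = 0.0316), named because they passed. Both lie on the X chromosome in mammals. Without obese pigs 1 and 3 DDX3X passed (adjusted p = 0.0332) and IKBKG, at -0.32 (unadjusted p = 0.00169 in limma), did not.

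Of genes that bind or process double-stranded RNA, 18 of 22 were found. For obese minus lean 0 of 18 passed the adjusted threshold in limma and 1 had an unadjusted p under 0.05, beside 14.7% of all genes, with a median of 0.03. In the 34 pigs the median was -0.08, 2 of 18 had an unadjusted p under 0.05, beside 13.7% of all genes, and 0 of 18 passed. DHX9, the helicase RNA helicase A, had 1992 ± 387 in lean and 1691 ± 278 in obese pigs (-0.24, adjusted p = 0.298), TARBP2, the Dicer partner TRBP, had a difference of -0.14 (adjusted p = 0.513), and ZC3HAV1, the antiviral protein ZAP, of 0.19 (adjusted p = 0.547). In obese pigs 1 and 3 the genes of this list differed among themselves, and those named next were chosen after their values were seen. OAS2, an oligoadenylate synthetase, had 9880 and 11576 there against a median of 923. ZBP1, ZNFX1 and TLR3 also had these pigs as the 2 highest. The microRNA enzymes had not: DICER1 was at 350 and 304 against a median of 355, and DROSHA at 244 and 247 against 247.

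The list of eIF2 kinases, eIF2 and stress-response genes had 12 of 20 genes found. Of these 0 of 12 passed the adjusted threshold for obese minus lean in limma and 2 had an unadjusted p under 0.05, beside 14.7% of all genes, with a median of -0.05. It was also -0.05 in the 34 pigs, where 3 of 12 had an unadjusted p under 0.05, beside 13.7%, and 0 of 12 passed. ATF3, a stress-induced transcription factor, had 146 ± 132 in lean and 293 ± 201 in obese pigs (1.13, adjusted p = 0.134), DNAJC3, an inhibitor of PKR and PERK, 399 ± 57.4 and 471 ± 67.1 (0.23, adjusted p = 0.162), and EIF2AK1, the haem-regulated eIF2 kinase, 242 ± 27.8 and 215 ± 33.3 (-0.19, adjusted p = 0.390). Obese pigs 1 and 3 were the 2 highest for 0 of 12, beside 1.71% of all genes.

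Interferon-induced genes, 23 of 34 found, had their highest counts in the same pigs as the members. None of 23 passed for obese minus lean and none had an unadjusted p under 0.05 (limma, median 0.11), beside 14.7% of all genes. The smallest p in limma were those of GBP1 (0.38, adjusted p = 0.481), GBP2 (0.44, adjusted p = 0.505) and IFIT2 (0.33, adjusted p = 0.608). Without obese pigs 1 and 3 the median was -0.33, 5 of 23 had an unadjusted p under 0.05, beside 13.7% of all genes, and 0 of 23 passed. Obese pigs 1 and 3 were the 2 highest of 36 for 21 of 23, beside 1.71% of all genes, the exceptions being GBP1 and GBP2. All 23 differences between the sexes were negative, with a median of -0.63. Of these 18 had an unadjusted p under 0.05, beside 18.3% of all genes, and 1 passed the adjusted threshold in limma, beside 2.19% of all genes, namely IFIT2 (-0.82, adjusted p = 0.0439). Without the 2 pigs all 23 were still negative, with a median of -0.40 and 12 of 23 at an unadjusted p under 0.05, beside 13.8% of all genes, and 0 of 23 passed.

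Receptors and factors of interferon signalling, 10 of 15 found, had a median obese minus lean difference of 0.19, with 0 of 10 past the adjusted threshold in limma and 4 of 10 at an unadjusted p under 0.05, beside 14.7% of all genes. In 34 pigs the median was 0.07, with 2 of 10 at an unadjusted p under 0.05, beside 13.7%, and 0 of 10 past the adjusted threshold. STAT2, a transcription factor of the response to type I interferon, had 878 ± 216 in lean and 1431 ± 947 in obese pigs (0.50, adjusted p = 0.175), the kinase TYK2 1981 ± 204 and 1798 ± 96.5 (-0.15, adjusted p = 0.193) and the kinase JAK2 138 ± 22.1 and 188 ± 60.6 (0.40, adjusted p = 0.198). STAT2, IRF2, IRF9 and SOCS1 had obese pigs 1 and 3 as the 2 highest, and without these pigs the STAT2 difference was 0.23 (p = 0.0568, adjusted p = 0.380 in limma).

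**Figure D4:**
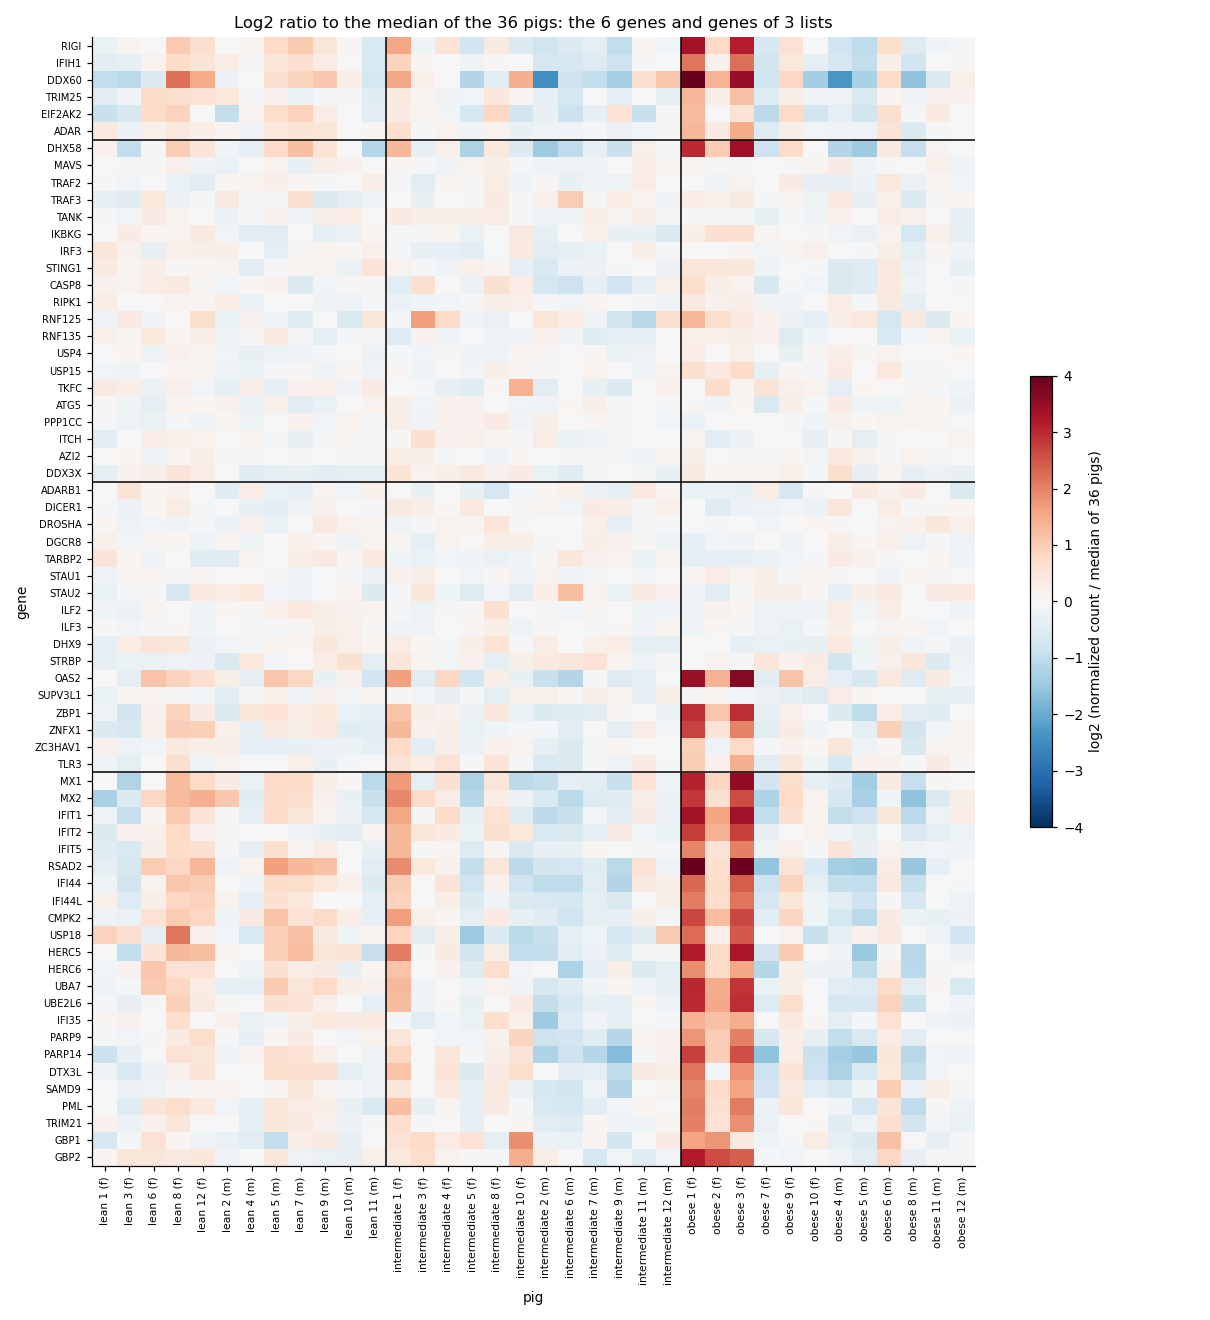
Log2 ratio of the normalized count to the median of the 36 pigs (colour, red above and blue below the median) for the 6 genes and, below the lines, genes of the RIG-I-like receptor pathway, of double-stranded RNA binding and processing and of the interferon-induced list. Pigs stand in columns by group and sex (f female, m male). The columns of obese pigs 1 and 3 are red for the 6 genes, palest for EIF2AK2 in pig 3 (1.47 times the median), and for DHX58, OAS2 and ZBP1 and the interferon-induced genes, and near white for MAVS, IRF3, DICER1 and DROSHA.

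**Figure D5:**
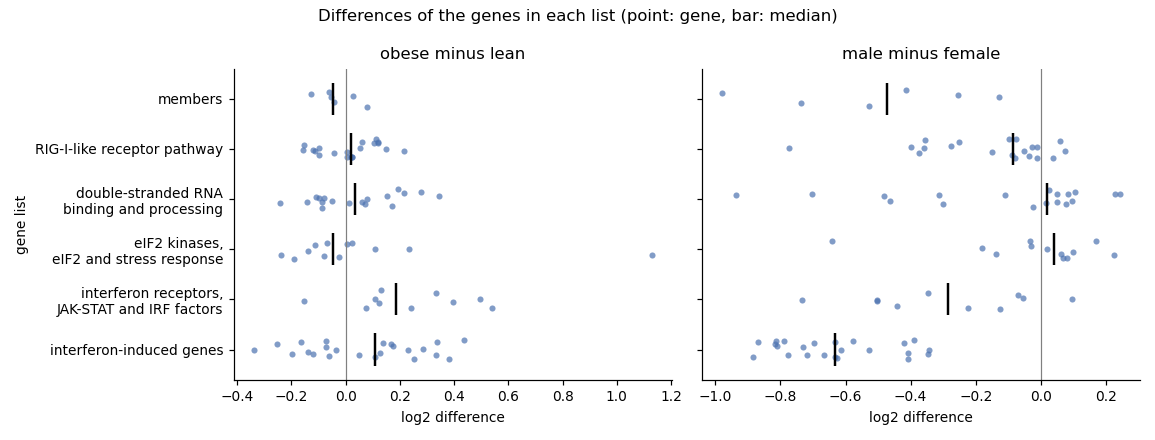
Log2 differences (horizontal axis) of the genes found in each list, for obese minus lean and male minus female. Each point is a gene and each bar the median of the list. The interferon-induced genes and the 6 members lie to the left of 0 in male minus female, with medians of -0.63 and -0.47, and around 0 in obese minus lean.

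The cell type markers of obese pigs 1 and 3 are given beside the levels of their sensors. On the summed count of the 4 T or NK cell markers they ranked 1 and 3 of 36, at 1724 and 781, where the medians of the lean, intermediate and obese groups were 237, 322 and 354. On the 7 macrophage markers they ranked 21 and 1, on the 5 adipocyte markers 1 and 9, on the 5 fibroblast or progenitor markers 33 and 16, and on the 4 endothelial markers 21 and 36. By the mean of the scaled markers, in which each gene weighs the same, their ranks were 1 and 3 for the T or NK cell and also for the adipocyte markers, and 22 and 6 for the macrophage markers. The part of these cells in the levels of the sensors was not tested. None of 6 B cell markers and 1 of 6 plasmacytoid dendritic cell markers (TCF4, which other cells also express) was found by symbol, so these types were not assessed.

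Over the 36 pigs the members correlated with no marker list past the threshold: 0 of 30 pairs of a member and a list had an adjusted permutation p under 0.05 after subtraction of group and sex means, and 3 had an unadjusted permutation p under 0.05. Without that subtraction 5 of 30 passed for r, all with the T or NK cell list (r up to 0.62, lowest adjusted permutation p = 0.0027). By rho TRIM25 alone of these passed (adjusted permutation p = 0.0183), with 0.174 for RIGI and IFIH1, 0.277 for DDX60 and 0.469 for ADAR. Without the 2 pigs farthest from the median of the member, r was 0.27 for RIGI and IFIH1, 0.32 for DDX60, 0.39 for TRIM25 and 0.13 for ADAR. After subtraction the T or NK cell score, the mean of its scaled markers, gave r from 0.30 (EIF2AK2) to 0.54 (TRIM25), rho from 0.22 to 0.45, with the smallest permutation p of 0.0177 and adjusted p of 0.385. Without obese pigs 1 and 3 these r were 0.12 to 0.37. The macrophage score gave r from -0.03 to 0.35 in 36 pigs and from 0.02 to 0.53 in 34, the highest being TRIM25 in both (adjusted permutation p = 0.105 in 34 pigs). In 34 pigs 4 of 6 members had an unadjusted permutation p under 0.05 with this score and 0 of 6 passed, the lowest adjusted permutation p for rho being 0.0784.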

How the data were processed

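Subcutaneous adipose RNA of 36 pigs was sequenced by poly(A) RNA-Seq. The authors used STAR for alignment to Sscrofa10.2, HTSeq for gene-level read counts and DESeq for size factors, left out weakly expressed genes, and deposited log2 values from limma's voom function. Their methods name a correction for gender, but whole reads came back from the deposited log2 values, which hence hold no such correction. A deposited value is the log2 of 1e+06 times the ratio of the reads plus 0.5 to the size factor plus 1, so it corrects only part of the depth. In every pig 100% of values under 20000 reads came within 0.1 of a whole read. Recovered reads per pig were 8735839 to 11755925 (median 10496910), the lowest in a pig being 6 or 7. Size factors ran from 0.796 to 1.18.

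Gene symbols were found for 8320 of the 12253 identifiers, and genes without one could not be matched. Tests used limma 3.58.1 in R 4.3.3 (empirical Bayes with an intensity trend, group and sex as terms, all genes and pigs, Benjamini-Hochberg at 0.05) and were tested on simulated data. The rest used Python 3.11.15, numpy 2.4.6, pandas 2.3.3 and scipy 1.17.1, and figures matplotlib 3.10.9. The text names the 6 members, the 3 genes of each list with the smallest p for obese minus lean and any past the threshold there, and the 3 genes nearest to each member. Other genes named were chosen after their values were seen. The members and lists were chosen with earlier results of these data known. Alternatives were no sex term, lean and obese pigs only, no trend, a filter removing the lowest 25% of genes, 2 other depth scalings, voom weights, robust moderation, and each pig left out in turn. Lengths and sequences of the genes were not used here, so levels are not compared between genes. Values of 2 genes of the lists are not reported here.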

Additional observations from a re-analysis of the deposited data

How the results depend on the processing

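No member passed the adjusted threshold in any comparison under any alternative, except TRIM25 for male minus female without lean pig 1 or obese pig 7. Signs of the small obese minus lean differences were not stable. With voom weights IFIH1 was 0.032 and DDX60 0.18. Without obese pigs 1 and 3, RIGI was -0.42 and TRIM25 -0.16, the obese minus intermediate difference was -0.092 for IFIH1, -0.25 for DDX60 and -0.014 for ADAR, and the interaction with sex was 0.36 for TRIM25, 0.27 for EIF2AK2 and 0.056 for ADAR, where the median interaction of all genes was 0.14 (0.086 with all pigs). Leaving out each pig in turn gave obese minus lean ranges of -0.15 to 0.22 for RIGI, -0.22 to 0.063 for IFIH1, -0.42 to 0.072 for DDX60, -0.062 to 0.12 for TRIM25, -0.15 to 0.074 for EIF2AK2 and -0.17 to 0.028 for ADAR, and interactions of -0.31 to 0.094 for TRIM25 and -0.41 to 0.088 for EIF2AK2. The intermediate minus lean and male minus female differences kept their sign in all members and alternatives that were run. DDX60 and EIF2AK2 were removed by the filter on low genes and have no value there.

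The number of genes called over the whole table, the background of the counts, moved more. For obese minus lean it was 5, and 3 without a sex term, 17 with lean and obese pigs only, 12 without the trend, 1 with the filter, 9 with each pig's median subtracted, 9 with the whole size factor and 0.5 or 5 added, 17 with voom weights and 3 with robust moderation. It ran from 1 to 292 without 1 pig, the highest without lean pig 2 (292) and lean pig 8 (204). The split of the calls by direction also differed between settings: 0 of the 5 were higher in obese pigs, as were 0 of the 3 without a sex term, 0 of the 1 with the filter, 0 of the 3 with robust moderation and 0 of the 4 without obese pigs 1 and 3, but 9 of the 17 with voom weights, 191 of the 292 without lean pig 2 and 89 of the 204 without lean pig 8 were. Whether the same genes were called was not counted. For the interaction it was 1, and 0 with lean and obese pigs only, with medians subtracted, with the whole size factor and with voom weights, and 2 without the trend, and 0 to 33 without 1 pig. For male minus female it was 268, and 90 without obese pigs 1 and 3, and 147 (without obese pig 1) to 546 (without lean pig 1). For intermediate minus lean it was 0, and 0 to 6 without 1 pig. The cause was not tested. All 15 pairs of members passed under the 4 alternatives run for them. When group and sex means were not subtracted, correlations with marker lists passed for r in 5 of 30 pairs, against 0 as reported. All were with the T or NK cell list, and by rho only that of TRIM25 passed (adjusted permutation p = 0.0183). Without the 2 farthest pigs r fell from 0.58 to 0.27 for RIGI and from 0.47 to 0.13 for ADAR. No paired analysis was possible because the labels number no replicates across groups. The reads limit EIF2AK2 most.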
